A study of Mus musculus with 24 samples.

Results

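The day-night contrast of mouse islet cells was taken from the transcriptomes of 2 endocrine cell types at the opposite ends of the lighting cycle. The 8 libraries, of 24 in the series, were those whose labels give ZT0 or ZT12 as the time of islet isolation. Zeitgeber time (ZT) counts hours of the lighting cycle, with lights on at ZT0 and lights off at ZT12. The groups were ZT0 alpha cells, ZT0 beta cells, ZT12 alpha cells and ZT12 beta cells, each with 2 libraries numbered 1 and 2. Alpha cells secrete glucagon and beta cells secrete insulin. All groups came from a triple reporter mouse strain. The labels do not name its reporters, and give neither the age of the mice nor the number of animals behind a library. They also do not say whether the alpha and beta libraries of one time and number came from the same islets. Total RNA was sequenced after removal of ribosomal RNA.

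Circadian clocks run in nearly every cell as a loop of transcription. The activators BMAL1 (gene Arntl) and CLOCK or NPAS2 bind E-box elements and switch on Period, Cryptochrome and REV-ERB genes, whose proteins repress the activators or the Arntl gene itself. The same activators drive output factors (Dbp, Tef, Hlf) that bind D-box elements, while REV-ERB and ROR proteins compete for another element. In mouse peripheral tissues Arntl is known to be high around lights on and Dbp around lights off. The clocks of alpha and beta cells are named in the series title, and the contrast of ZT0 with ZT12 asks which genes were at different levels at these hours in both cell types and in each.

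The labels fitted the hormone genes Gcg and Ins2. Gcg, the glucagon gene, had 150900 and 97650 RPKM (reads scaled to gene length and library total) in ZT0 alpha cells and 141 and 372 in ZT0 beta cells, against 129300 and 133200 in ZT12 alpha cells and 93.1 and 40.5 in ZT12 beta cells. Ins2, an insulin gene, had 742 and 931 RPKM in ZT0 alpha cells and 207900 and 127000 in ZT0 beta cells, against 810.2 and 282 in ZT12 alpha cells and 164600 and 177400 in ZT12 beta cells. Each of these 2 genes was at least 100 times higher in its own cell type in every library. Hormone genes of other islet cells were also present. Ppy had means of 26740 RPKM at ZT0 and 29240 at ZT12 in alpha cells, against 301.5 and 211.6 in beta cells. Sst had means of 3102 RPKM at ZT0 and 2615 at ZT12 in alpha cells, against 1112 and 932.4 in beta cells. Whether other endocrine cells added to the alpha libraries was not tested. Between 4944982 and 12219276 reads on genes stood behind a library, the lowest being ZT12 alpha number 2. The ZT0 libraries differed more within a group than the ZT12 libraries did. The SD between the 2 libraries of a group, over 10487 genes with a mean above 1 on the log2 RPKM scale, was 0.302 in ZT0 alpha and 0.385 in ZT0 beta cells, against 0.186 in ZT12 alpha and 0.156 in ZT12 beta cells. At ZT0 the deviations were shared by the cell types. The alpha and beta libraries of one number deviated from their group means together, with a correlation over genes of 0.73 at ZT0 and 0.17 at ZT12. Meg3, a nuclear non-coding RNA, had 10.8 RPKM in ZT0 alpha number 1 and 7.58 RPKM in ZT0 beta number 1, and 57.1 and 57.8 RPKM in the 2 libraries of number 2. At ZT12 it lay between 14.3 and 24.1 RPKM. The tests of both cell types together take the 4 libraries of a time as independent. Each main count is therefore followed by the count from a fit that treats the 2 libraries of one time and number as a linked pair. Whether such libraries came from the same animals was not tested.

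Of 14027 genes, 154 (1.10%) differed between ZT0 and ZT12 across both cell types at an adjusted p under 0.05 (limma, cell type as a factor, Benjamini-Hochberg). Of these, 68 (0.485%) were higher and 86 (0.613%) lower at ZT0. With linked pairs 23 genes (0.164%) passed, 11 higher and 12 lower, all of them among the 154. In all 154 the change had the same direction in alpha and beta cells, and the ZT0 and ZT12 libraries did not overlap in either cell type. The last held for 2143 of all genes (15.3%). The log2 difference of the 68 ranged from 0.50 to 4.12 with a median of 1.01, and that of the 86 ran down to -3.05 with a median of -0.87. A change of at least 2-fold was found for 35 genes in each direction. The count depended on the libraries used. Without 1 of the ZT12 libraries it was 25 and 39 (alpha numbers 1 and 2) or 27 and 34 (beta numbers 1 and 2). Without 1 of the ZT0 libraries it was 69 and 83 (alpha) or 215 and 140 (beta). Leaving out both libraries of 1 time and number left 1 library per cell type at that time. The spread of such a fit came mostly from the other time, and it was wider at ZT0. Its count rose far above 154 without a ZT0 pair and fell far below without a ZT12 pair. Such counts cannot be set beside the 154.

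Genes of the circadian clock made the largest changes among the 154, with Npas2, Arntl, Nfil3, Dbp, Nr1d2, Per3 and Ciart ahead of every other called gene in size. Of 20 core clock genes measured, 15 were called, 5 higher and 10 lower at ZT0, where 1.10% of all genes were called, and 10 were called with linked pairs. In all 15 the ZT0 and ZT12 libraries did not overlap in either cell type, as in all 154 called genes and 15.3% of all genes. The plot of core clock genes by library shows the values of 19 of them.

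**Figure D1:**
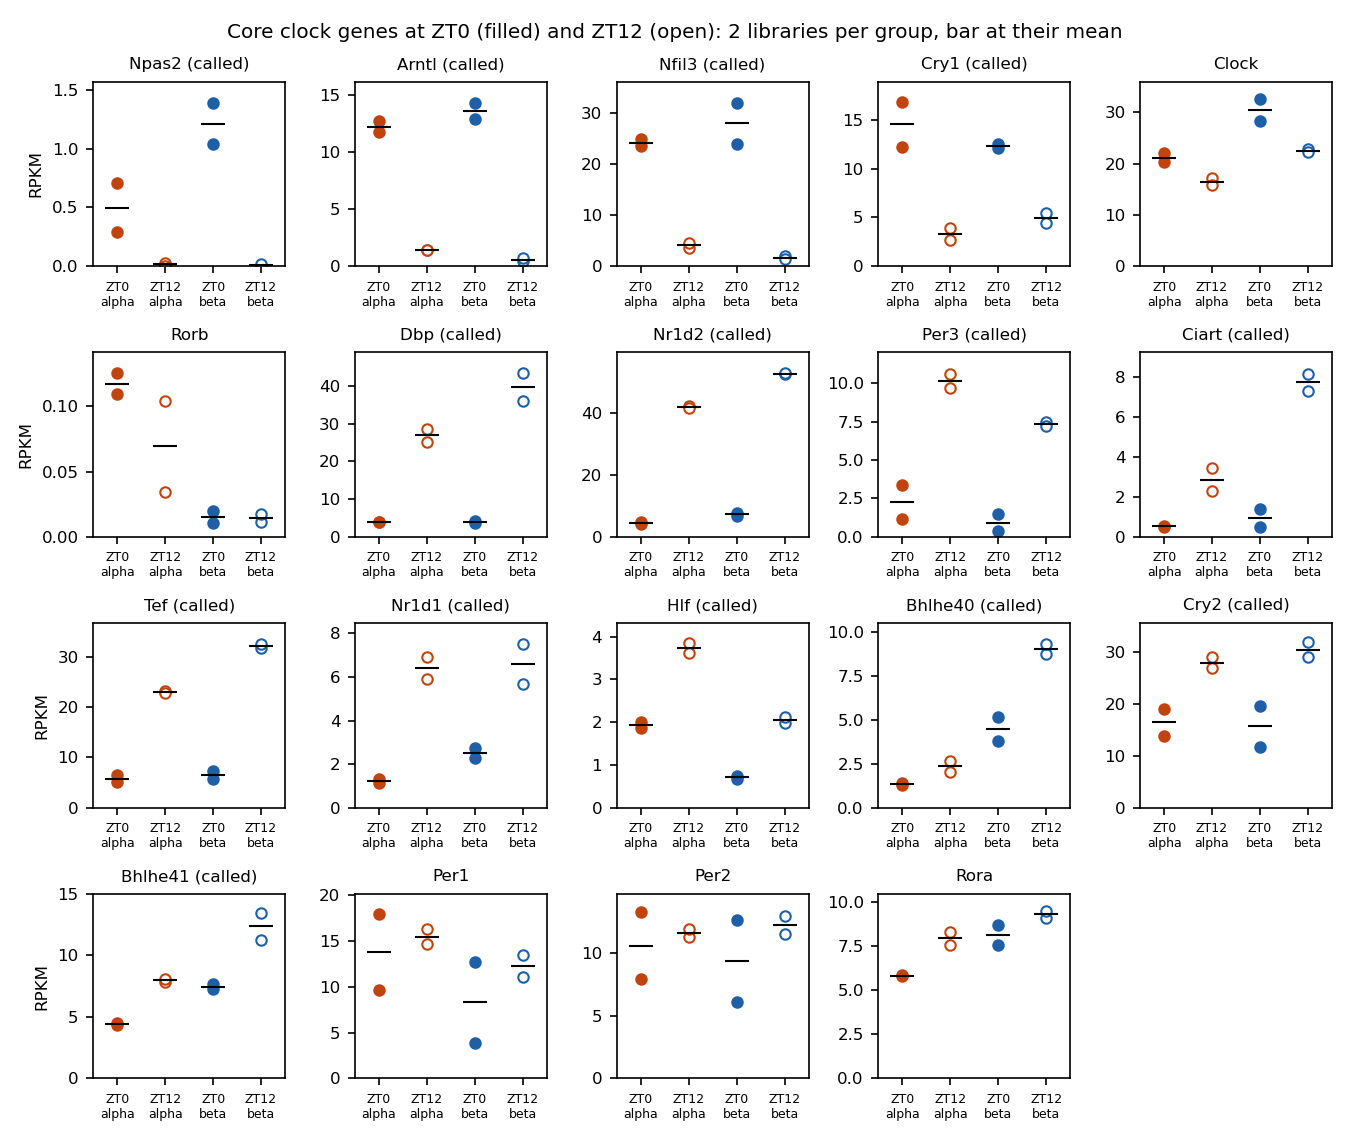
RPKM of 19 core clock genes (y axes, each from 0) in ZT0 and ZT12 libraries of alpha cells (orange) and beta cells (blue), with ZT0 filled and ZT12 open. Points are libraries, 2 per group, and bars their means. Arntl lies between 11.7 and 14.3 RPKM at ZT0 and between 0.421 and 1.43 RPKM at ZT12, while the ZT0 libraries of Per1 and Per2 spread across the ZT12 level in alpha cells.

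Of the activators, Arntl and Npas2 were high at ZT0. Arntl, whose product BMAL1 is the indispensable activator of the loop, had 11.7 and 12.7 RPKM at ZT0 against 1.42 and 1.43 RPKM at ZT12 in alpha cells, and 12.9 and 14.3 RPKM at ZT0 against 0.421 and 0.693 RPKM at ZT12 in beta cells. The ZT0 libraries all stood far above the ZT12 libraries, and the level at ZT12 was lower in beta than in alpha cells. Its common log2 difference was 3.76 (SE 0.282, limma adjusted p = 0.00053, with linked pairs 0.0059). Npas2, which can take the place of CLOCK, was nearly silent at ZT12. It had 0.710 and 0.287 RPKM at ZT0 against 0.0293 and 0 RPKM at ZT12 in alpha cells, and 1.04 and 1.39 RPKM at ZT0 against 0 and 0.0170 RPKM at ZT12 in beta cells. These values rest on 192 reads in the 4 ZT0 libraries and 3 reads in the 4 ZT12 libraries, a ratio of 53.9 (95% interval 18.2 to 264, counting error only). The fitted difference of 4.12 (adjusted p = 0.0047, with linked pairs 0.043) depends on the prior count added to such low values. Clock itself, at 21.97 and 20.2 RPKM at ZT0 against 17.1 and 15.8 RPKM at ZT12 in alpha cells and 32.5 and 28.3 RPKM at ZT0 against 22.8 and 22.3 RPKM at ZT12 in beta cells, did not pass (log2 difference 0.40, SE 0.0910, adjusted p = 0.087).

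Nfil3, a repressor that competes with the Dbp family at D-box elements, had 24.8 and 23.6 RPKM at ZT0 against 3.62 and 4.48 RPKM at ZT12 in alpha cells, and 23.99 and 31.97 RPKM at ZT0 against 1.93 and 1.37 RPKM at ZT12 in beta cells (log2 difference 3.28, SE 0.277, adjusted p = 0.001, with linked pairs 0.024). Like Arntl it was lower at ZT12 in beta cells than in alpha cells. Cry1, a repressor of the activator complex that acts late in the cycle, had 16.9 and 12.2 RPKM at ZT0 against 3.86 and 2.70 RPKM at ZT12 in alpha cells, and 12.1 and 12.5 RPKM at ZT0 against 5.44 and 4.45 RPKM at ZT12 in beta cells (log2 difference 1.72, SE 0.201, adjusted p = 0.0069, with linked pairs 0.046). Rora and Rorb, which encode ROR activators of Arntl, did not pass, Rora at a log2 difference of -0.32 (adjusted p = 0.18) and Rorb, with 35 reads in all at ZT0 and 19 at ZT12, at 0.39 (adjusted p = 0.69).

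The output factors and the REV-ERB repressors were low at ZT0. Dbp, the founding member of the PAR bZIP activators, had 3.81 and 3.93 RPKM at ZT0 against 25.1 and 28.7 RPKM at ZT12 in alpha cells, and 3.57 and 4.14 RPKM at ZT0 against 35.95 and 43.3 RPKM at ZT12 in beta cells. The ZT0 level was the same in both cell types to within the spread of the libraries, and every ZT12 library was at least 6 times higher. Its log2 difference was -3.05 (SE 0.139, adjusted p = 1.8e-05, with linked pairs 8e-05). Its relative Tef had 5.10 and 6.39 RPKM at ZT0 against 23.2 and 22.7 RPKM at ZT12 in alpha cells, and 5.63 and 7.21 RPKM at ZT0 against 31.8 and 32.6 RPKM at ZT12 in beta cells (log2 difference -2.17, adjusted p = 0.0001, with linked pairs 0.00021). Hlf, the third of the family, changed less (log2 difference -1.22, adjusted p = 0.014) and did not pass with linked pairs (adjusted p = 0.093). Nr1d2, which encodes REV-ERB beta, had 4.14 and 4.91 RPKM at ZT0 against 42.3 and 41.4 RPKM at ZT12 in alpha cells, and 7.78 and 6.75 RPKM at ZT0 against 52.6 and 52.7 RPKM at ZT12 in beta cells. It had the lowest p of all 14027 genes (log2 difference -3.03, SE 0.111, adjusted p = 4.8e-06, with linked pairs 2.6e-05). Nr1d1, which encodes REV-ERB alpha, had 1.14 and 1.32 RPKM at ZT0 against 5.92 and 6.91 RPKM at ZT12 in alpha cells, and 2.27 and 2.72 RPKM at ZT0 against 5.67 and 7.53 RPKM at ZT12 in beta cells (log2 difference -1.86, adjusted p = 0.0067, with linked pairs 0.046).

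The repressors of the Period, Cryptochrome and DEC families were uneven. Per3 fell (log2 difference -2.81, SE 0.445, adjusted p = 0.025), but its ZT0 libraries were split by number. It had 1.15 and 3.36 RPKM in ZT0 alpha numbers 1 and 2 and 0.371 and 1.46 RPKM in ZT0 beta numbers 1 and 2, against 10.6 and 9.68 RPKM in ZT12 alpha cells and 7.46 and 7.22 RPKM in ZT12 beta cells. Number 2 was higher in both cell types, and the gene did not pass with linked pairs (adjusted p = 0.067). Per1 and Per2, the other Period genes, showed the same split and were not called. Per1 had 9.63 and 17.99 RPKM in ZT0 alpha cells and 3.91 and 12.7 RPKM in ZT0 beta cells, against 14.7 and 16.3 RPKM in ZT12 alpha cells and 13.5 and 11.03 RPKM in ZT12 beta cells (log2 difference -0.51, SE 0.341, adjusted p = 0.54). Per2 had 7.88 and 13.3 RPKM in ZT0 alpha cells and 6.07 and 12.6 RPKM in ZT0 beta cells, against 11.3 and 11.9 RPKM in ZT12 alpha cells and 12.9 and 11.5 RPKM in ZT12 beta cells (log2 difference -0.33, SE 0.234, adjusted p = 0.56). In alpha cells the ZT12 values of both genes lay between those of the ZT0 libraries of numbers 1 and 2. In beta cells ZT12 number 2 did too, and ZT12 number 1 lay just above both ZT0 libraries. Cry2 (log2 difference -0.90, adjusted p = 0.048), Bhlhe40 (log2 difference -0.90, adjusted p = 0.034) and Bhlhe41 (log2 difference -0.78, adjusted p = 0.01) fell without passing with linked pairs (adjusted p = 0.13, 0.2 and 0.061). The last 2 encode the DEC repressors, which bind E-boxes. Ciart, listed in the table as Gm129, encodes a repressor of the activator complex and had 0.541 and 0.500 RPKM at ZT0 against 2.30 and 3.43 RPKM at ZT12 in alpha cells, and 0.478 and 1.40 RPKM at ZT0 against 7.30 and 8.18 RPKM at ZT12 in beta cells (log2 difference -2.67, adjusted p = 0.0069, with linked pairs 0.046).

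The promoters of these genes were scanned for the letters of the loop's elements. RefSeq promoters of 300 bases (250 before to 50 after the start, assembly GRCm38.p6) were found for 13 of the 15 called clock genes. They were searched on both strands for the E-box CACGTG, the D-box TTANGTAA and the half-site AGGTCA that ROR and REV-ERB proteins share. The E-box stood in promoters of Bhlhe41, Cry1, Ciart and Tef, the D-box in that of Per3 and the half-site in those of Arntl, Nfil3 and Nr1d2. The called genes Dbp, Nr1d1, Hlf, Npas2 and Cry2 held no match, nor did another Arntl promoter. Of the 15 promoters of the 13 genes, 5 held the E-box, 1 the D-box and 3 the half-site. Of all 32851 promoters of this length, 7.15% held the E-box, 2.32% the D-box and 16.3% the half-site. The half-site in 3 of 15 is thus near its share of all promoters, and the D-box rests on 1 promoter. The 5 promoters shown are from 2 genes high at ZT0 that hold the half-site and 3 genes low at ZT0 that hold an E-box or D-box, with the matches in capitals and each sequence written along the gene's strand. Among the genes not shown, Cry1 was high at ZT0 with an E-box, and Nr1d2 was low at ZT0 with the half-site. A match describes letters in this window and shows no binding.
Arntl promoter, chr7:113207261-113207560, plus strand: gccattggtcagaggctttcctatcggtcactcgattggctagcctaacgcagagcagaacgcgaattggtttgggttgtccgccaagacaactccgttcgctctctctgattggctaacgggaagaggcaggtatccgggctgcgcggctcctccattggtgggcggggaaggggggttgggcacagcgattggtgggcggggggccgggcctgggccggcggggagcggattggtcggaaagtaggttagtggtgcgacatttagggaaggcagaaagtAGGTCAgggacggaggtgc
Nfil3 promoter, chr13:52980990-52981289, minus strand: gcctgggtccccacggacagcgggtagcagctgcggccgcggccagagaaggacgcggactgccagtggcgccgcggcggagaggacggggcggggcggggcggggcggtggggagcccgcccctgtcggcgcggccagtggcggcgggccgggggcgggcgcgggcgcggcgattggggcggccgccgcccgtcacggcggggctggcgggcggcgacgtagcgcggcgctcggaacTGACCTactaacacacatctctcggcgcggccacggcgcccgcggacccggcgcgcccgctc
Ciart promoter, chr3:95882179-95882478, minus strand: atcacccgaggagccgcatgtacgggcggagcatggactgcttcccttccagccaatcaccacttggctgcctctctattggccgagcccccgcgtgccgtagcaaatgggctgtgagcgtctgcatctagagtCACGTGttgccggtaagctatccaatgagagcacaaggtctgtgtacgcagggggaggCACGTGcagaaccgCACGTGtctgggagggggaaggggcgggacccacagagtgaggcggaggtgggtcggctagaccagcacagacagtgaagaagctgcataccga
Tef promoter, chr15:81802423-81802722, plus strand: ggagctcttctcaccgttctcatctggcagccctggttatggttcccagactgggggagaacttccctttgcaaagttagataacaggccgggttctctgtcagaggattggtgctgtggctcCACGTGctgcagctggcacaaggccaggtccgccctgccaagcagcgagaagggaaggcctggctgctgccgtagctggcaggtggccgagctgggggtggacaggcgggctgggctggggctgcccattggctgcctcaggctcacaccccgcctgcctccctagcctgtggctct
Per3 promoter, chr4:151044616-151044915, minus strand: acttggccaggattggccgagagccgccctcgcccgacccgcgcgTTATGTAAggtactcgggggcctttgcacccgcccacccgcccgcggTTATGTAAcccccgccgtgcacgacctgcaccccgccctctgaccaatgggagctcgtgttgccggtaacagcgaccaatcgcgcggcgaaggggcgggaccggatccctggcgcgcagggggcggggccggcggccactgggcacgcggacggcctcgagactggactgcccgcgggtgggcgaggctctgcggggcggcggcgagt
Counted from the start site, the Ciart window holds the E-box 3 times, at -116, -58 and -44, and the Per3 window holds the D-box 2 times, at -205 and -158. In Arntl the half-site lies at 31, and in Nfil3 it lies at -12 on the opposite strand.

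The 15 called clock genes kept their direction in libraries that the contrast did not use. In the 16 libraries of the other times, the mean of ZT4 and ZT20 minus that of ZT8 and ZT16 sets the hours around lights on against the hours around lights off. All 15 had the same sign there and 10 were called, where 34 of 14027 genes (0.242%) were called. Arntl had a log2 difference of 1.62 (adjusted p = 3.2e-05), Npas2 1.87 (adjusted p = 0.0084), Dbp -1.38 (adjusted p = 8.9e-06) and Nr1d2 -1.07 (adjusted p = 1.1e-05). Nfil3 had 1.39 but did not pass (adjusted p = 0.14). Over all 154 called genes 127 (82.5%) had the same sign, against 7401 of all genes (52.8%), and 21 were called in both, which is 13.6% of the 154 and 61.8% of the 34. The alpha and beta libraries of one number deviated together at ZT4 (correlation over genes of 0.55) and ZT8 (0.51), and less at ZT16 (0.15) and ZT20 (0.031). With linked pairs 19 genes (0.135%) were called at the neighbouring times, all among the 34, and they held 9 of the 15 clock genes and 17 of the 154.

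**Figure D2:**
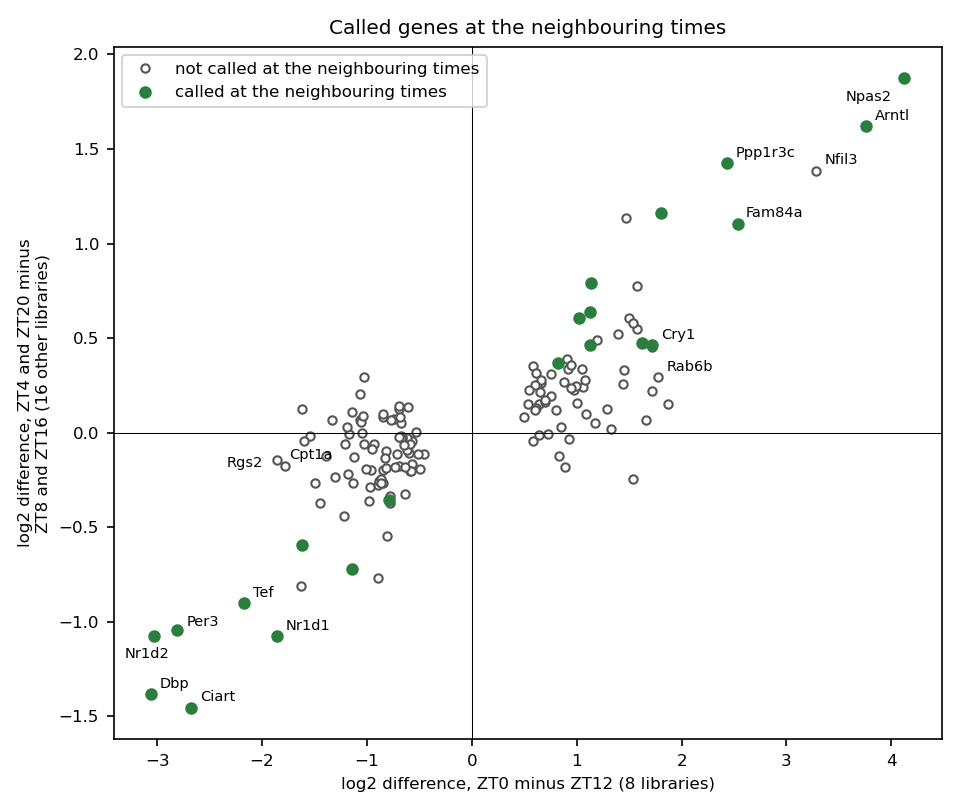
Each point is 1 of the 154 genes called between ZT0 and ZT12. The x axis is the log2 difference ZT0 minus ZT12 in 8 libraries and the y axis the log2 difference of ZT4 and ZT20 minus ZT8 and ZT16 in the 16 other libraries, with genes called there in green. Clock genes such as Arntl (3.76 and 1.62) and Dbp (-3.05 and -1.38) lie in the upper right and lower left, while Cpt1a (-1.54 and -0.02) lies on the zero line of the y axis.

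Outside the clock, Fam84a, Ppp1r3c, Rab6b, Ypel2 and Ppm1b rose at ZT0 and also passed with linked pairs. Fam84a, a gene of the LRAT-domain family, was 5.79-fold higher at ZT0 over both cell types. It had 26.9 and 17.3 RPKM at ZT0 against 4.18 and 4.42 RPKM at ZT12 in alpha cells, and 2.33 and 2.01 RPKM at ZT0 against 0.326 and 0.227 RPKM at ZT12 in beta cells (log2 difference 2.53, SE 0.187, adjusted p = 0.00053, with linked pairs 0.0024). The log2 difference was 2.32 in alpha cells, where the level was at least 7 times that in beta cells, and 2.75 in beta cells. Ppp1r3c, which targets a phosphatase to glycogen and promotes its synthesis, had 4.56 and 3.27 RPKM at ZT0 against 0.577 and 0.764 RPKM at ZT12 in alpha cells, and 9.97 and 4.66 RPKM at ZT0 against 1.03 and 1.38 RPKM at ZT12 in beta cells (log2 difference 2.43, adjusted p = 0.0036, with linked pairs 0.0059). Rab6b, a small GTPase of Golgi transport, had 2.22 and 3.43 RPKM at ZT0 against 0.924 and 0.838 RPKM at ZT12 in alpha cells, and 5.29 and 7.75 RPKM at ZT0 against 1.83 and 1.44 RPKM at ZT12 in beta cells (log2 difference 1.78, adjusted p = 0.0061, with linked pairs 0.019). Ypel2 (log2 difference 1.12, adjusted p = 0.00065) and the phosphatase gene Ppm1b (log2 difference 0.82, adjusted p = 0.006) were smaller but tight changes that passed with linked pairs (adjusted p = 0.0032 and 0.038) and in all 8 fits without 1 library.

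Other genes rose at ZT0 and did not pass with linked pairs. They included Relt, a member of the tumour necrosis factor receptor family (log2 difference 1.62, adjusted p = 0.0069, with linked pairs 0.061), Gucy2c, the guanylate cyclase C receptor (log2 difference 1.46, adjusted p = 0.01, with linked pairs 0.061), the lectin gene Lgals4 (log2 difference 1.53, adjusted p = 0.035, with linked pairs 0.18), Ccbl2, now Kyat3 (log2 difference 1.39, adjusted p = 0.031, with linked pairs 0.13), and Rspo4, an enhancer of Wnt signalling (log2 difference 1.29, adjusted p = 0.038, with linked pairs 0.23). Gucy2c illustrates their levels. It had 2.88 and 2.25 RPKM at ZT0 against 0.730 and 0.621 RPKM at ZT12 in alpha cells, and 33.1 and 25.3 RPKM at ZT0 against 14.6 and 13.1 RPKM at ZT12 in beta cells, where it was at least 8 times higher at either time. Lgals4 passed in 1 of the 8 fits without 1 library, and Ccbl2 and Rspo4 in 2 each.

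Lipid genes were called in both directions. Of 20 genes of fatty acid synthesis and storage, 3 rose at ZT0 and 0 fell, where 0.485% of all genes were called higher. The median log2 difference was 0.16 against 0.01 for all genes. Scd2 and Scd1 encode desaturases that make monounsaturated fatty acids. Scd2 had 33.5 and 26.01 RPKM at ZT0 against 14.2 and 13.6 RPKM at ZT12 in alpha cells, and 97.2 and 83.3 RPKM at ZT0 against 52.6 and 49.9 RPKM at ZT12 in beta cells (log2 difference 0.95, adjusted p = 0.0099, with linked pairs 0.043). Scd1 was far lower, at 1.23 and 1.09 RPKM at ZT0 against 0.478 and 0.469 RPKM at ZT12 in alpha cells and 4.24 and 3.14 RPKM at ZT0 against 1.19 and 0.813 RPKM at ZT12 in beta cells (log2 difference 1.53, adjusted p = 0.015, with linked pairs 0.093). The 2 genes are close in sequence, so reads could be split between them. Lpl, the lipoprotein lipase that frees fatty acids from circulating triglyceride, had 72.6 and 57.4 RPKM at ZT0 against 32.01 and 36.4 RPKM at ZT12 in alpha cells, and 14.3 and 11.4 RPKM at ZT0 against 5.85 and 4.31 RPKM at ZT12 in beta cells (log2 difference 1.13, adjusted p = 0.014, with linked pairs 0.067). Fasn, the fatty acid synthase, did not pass (log2 difference 0.36, adjusted p = 0.14), nor did Acaca, the carboxylase before it (log2 difference 0.28, adjusted p = 0.35).

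Of 15 genes of fatty acid oxidation 1 fell and 0 rose, where 0.613% of all genes were called lower. The median was -0.15 and 12 members were below 0. The 1 that fell was Cpt1a, the carnitine transferase that admits long fatty acids to the mitochondrion. It had 5.38 and 5.02 RPKM at ZT0 against 15.6 and 15.9 RPKM at ZT12 in alpha cells, and 6.46 and 7.40 RPKM at ZT0 against 19.2 and 20.1 RPKM at ZT12 in beta cells. The libraries of a group differed by at most 1 RPKM, and the log2 difference was -1.59 in alpha and -1.50 in beta cells (common log2 difference -1.54, SE 0.0920, adjusted p = 0.0001, with linked pairs 0.00056). Acaa2, the thiolase of the mitochondrial pathway, was not on the list. It had 10.3 and 7.30 RPKM at ZT0 against 19.3 and 19.5 RPKM at ZT12 in alpha cells, and 14.2 and 12.8 RPKM at ZT0 against 28.3 and 23.8 RPKM at ZT12 in beta cells (log2 difference -1.04, adjusted p = 0.009, with linked pairs 0.043). Eci2, an isomerase of unsaturated acyl chains, also fell (log2 difference -0.67, adjusted p = 0.04) but not with linked pairs (adjusted p = 0.22). Acaa2 and Eci2 were named after their values were seen. Acadm, the medium-chain dehydrogenase of the same pathway, was not called (log2 difference -0.18, SE 0.0960, adjusted p = 0.42).

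Cpt1a was followed over the 6 times of the series. Cpt1a had a mean of 5.20 ± 0.262 RPKM at ZT0, 20.3 ± 5.30 at ZT4, 18.7 ± 3.46 at ZT8, 15.8 ± 0.286 at ZT12, 5.34 ± 0.479 at ZT16 and 6.21 ± 1.25 at ZT20 in alpha cells (SD, n = 2 each). In beta cells it had 6.93 ± 0.667 RPKM at ZT0, 16.4 ± 0.358 at ZT4, 19.8 ± 4.96 at ZT8, 19.6 ± 0.649 at ZT12, 7.84 ± 0.0135 at ZT16 and 7.20 ± 0.647 at ZT20. It was thus high at ZT4, ZT8 and ZT12 and low at ZT16, ZT20 and ZT0 in both cell types. The difference between the neighbouring times was near 0 for Cpt1a (-0.02, SE 0.105) and Acaa2 (0.00, SE 0.0960), since ZT4 and ZT8 were high and ZT16 and ZT20 low. Of the 23 genes called with linked pairs, 19 had the same sign at the neighbouring times and 13 were called there, 12 with linked pairs.

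**Figure D3:**
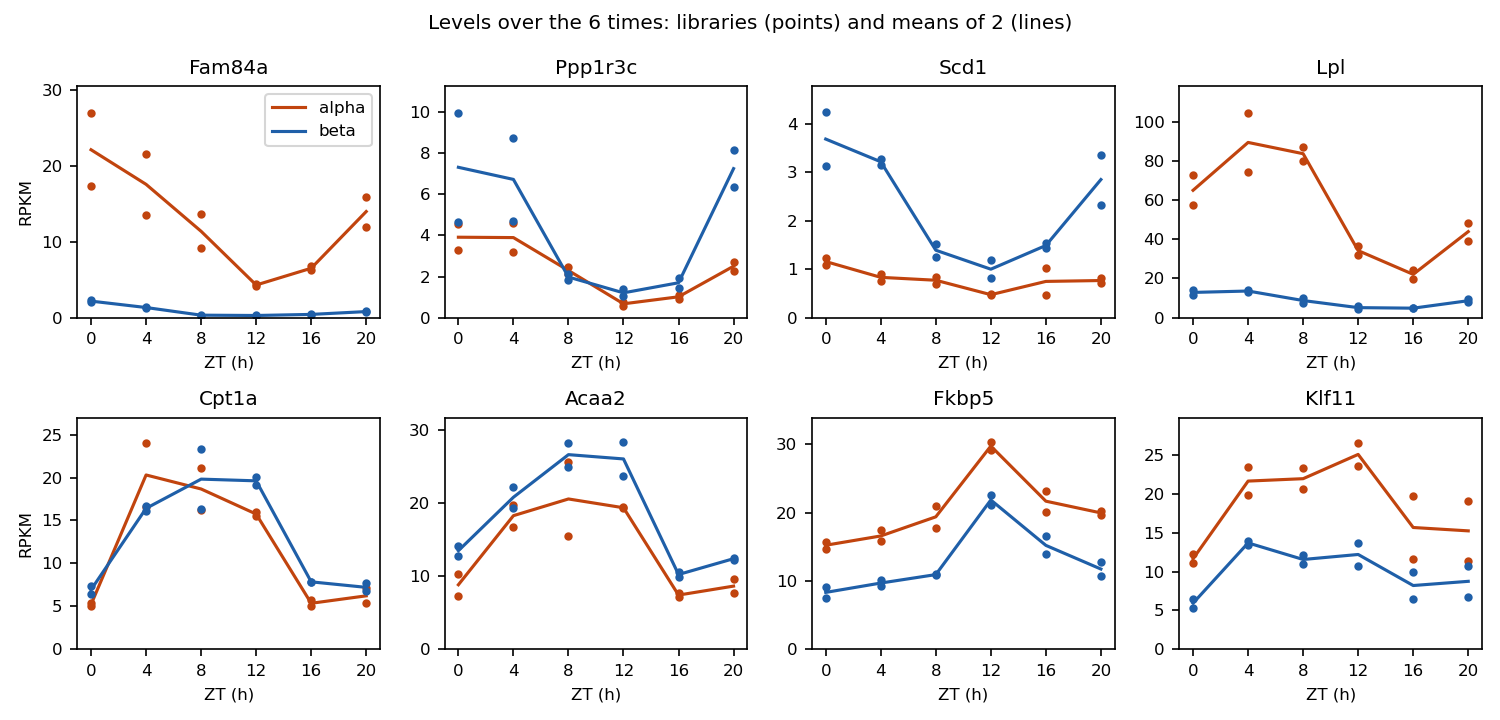
RPKM (y axes from 0) of 8 genes against zeitgeber time in hours, in alpha cells (orange) and beta cells (blue). Points are libraries, 2 per group, and lines join their means. Fam84a, Ppp1r3c and Scd1 have their lowest mean at ZT12 in both cell types, Cpt1a and Acaa2 are high from ZT4 to ZT12, and Fkbp5 has its highest mean at ZT12.

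Over the 6 times, 41 of the 68 higher genes had their highest mean at ZT0, 11 each at ZT4 and ZT20, 4 at ZT16 and 1 at ZT8, and 55 had their lowest mean at ZT12. Of the 86 lower genes 64 had their highest mean at ZT12, 14 at ZT8, 6 at ZT4 and 2 at ZT16, and 57 had their lowest mean at ZT0. The ZT0 and ZT12 libraries entered these means as well as the calls, so the counts are a description.

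Of 13 glucocorticoid and fasting targets, 2 fell at ZT0 and 0 rose, where 0.613% of all genes were called lower. The median was -0.51, with 8 members below 0 and 5 above. Corticosterone of the mouse is known to rise towards lights off, and its part in these changes was not tested. Fkbp5, a chaperone of the glucocorticoid receptor and one of its best known targets, had 15.8 and 14.7 RPKM at ZT0 against 30.3 and 29.2 RPKM at ZT12 in alpha cells, and 9.08 and 7.54 RPKM at ZT0 against 22.6 and 21.1 RPKM at ZT12 in beta cells (log2 difference -1.18, SE 0.117, adjusted p = 0.0034, with linked pairs 0.019). Its highest mean over the 6 times was at ZT12 in each cell type. Klf9, a transcription factor gene that the receptor activates, had 16.1 and 18.4 RPKM at ZT0 against 25.9 and 33.2 RPKM at ZT12 in alpha cells, and 27.7 and 26.9 RPKM at ZT0 against 43.1 and 51.7 RPKM at ZT12 in beta cells (log2 difference -0.78, adjusted p = 0.017, with linked pairs 0.061). Tsc22d3, which encodes GILZ, had a log2 difference of -0.57 (adjusted p = 0.077), the metallothionein gene Mt1 -0.96 (adjusted p = 0.068) and Sgk1 0.21 (adjusted p = 0.68), none of which passed. The list shares Per1 with the clock list, Mt1 and Mt2 with antioxidant genes, Dusp1 with immediate early genes and Cdkn1a with cell cycle genes. It shares Pdk4 with the lists of fatty acid oxidation and glucose sensing.

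Other genes fell at ZT0. Among those called with linked pairs, Klf11, a Krüppel-like transcription factor gene, had 11.1 and 12.2 RPKM at ZT0 against 23.6 and 26.6 RPKM at ZT12 in alpha cells, and 5.34 and 6.51 RPKM at ZT0 against 10.7 and 13.7 RPKM at ZT12 in beta cells (log2 difference -1.07, adjusted p = 0.0053, with linked pairs 0.016). Kit, the receptor of stem cell factor, had 6.24 and 5.32 RPKM at ZT0 against 13.2 and 12.3 RPKM at ZT12 in alpha cells, and under 1 RPKM in all beta libraries (log2 difference -1.21, adjusted p = 0.0069, with linked pairs 0.043). N4bp2l1 (log2 difference -1.06, adjusted p = 0.0013, with linked pairs 0.0059) and Wbscr27, now Mettl27 (log2 difference -1.04, adjusted p = 0.0053, with linked pairs 0.037), were also among these calls. Without linked pairs the calls also took in Wfdc16, a gene of the WAP-domain inhibitor family (log2 difference -1.62, adjusted p = 0.014), the small GTPase gene Arl4d (log2 difference -1.30, adjusted p = 0.016), and Pgm2l1, which makes glucose 1,6-bisphosphate (log2 difference -1.19, adjusted p = 0.015). Cirbp, the cold-inducible RNA-binding protein that is known to follow body temperature, had 21.04 and 25.4 RPKM at ZT0 against 39.6 and 48.5 RPKM at ZT12 in alpha cells, and 30.1 and 28.5 RPKM at ZT0 against 45.8 and 54.9 RPKM at ZT12 in beta cells (log2 difference -0.85, adjusted p = 0.015, with linked pairs 0.061). It was the 1 of 15 heat shock and cold-inducible genes that was called, where 1.10% of all genes were. The list's median was 0.10, and the heat shock genes Hspa1a (log2 difference -1.21, adjusted p = 0.1) and Hspa1b (log2 difference -1.03, adjusted p = 0.15), near-identical copies, did not pass.

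Several called genes outside the lists were named after their values were seen, and none passed with linked pairs. Abca1, the cholesterol exporter, fell at ZT0 (log2 difference -0.84, adjusted p = 0.0095, with linked pairs 0.061), as did the nuclear receptor gene Rxra (log2 difference -0.59, adjusted p = 0.02, with linked pairs 0.13), the ubiquitin ligase gene Fbxo32 (log2 difference -1.14, adjusted p = 0.016, with linked pairs 0.067), Klhl24 (log2 difference -1.03, adjusted p = 0.01, with linked pairs 0.085), the stress gene Gadd45b (log2 difference -1.17, adjusted p = 0.017, with linked pairs 0.093), glutamine synthetase, Glul (log2 difference -0.69, adjusted p = 0.047, with linked pairs 0.15), the glucose 6-phosphate transporter gene Slc37a4 (log2 difference -0.71, adjusted p = 0.016, with linked pairs 0.093), and the purine receptor gene P2ry1 (log2 difference -0.95, adjusted p = 0.022, with linked pairs 0.093). The subunits of the interleukin 6 receptor moved in opposite directions. Il6st, the signalling subunit, had 47.6 and 40.1 RPKM at ZT0 against 27.4 and 28.8 RPKM at ZT12 in alpha cells, and 18.98 and 19.3 RPKM at ZT0 against 12.8 and 12.3 RPKM at ZT12 in beta cells (log2 difference 0.62, adjusted p = 0.017, with linked pairs 0.093). Il6ra, the binding subunit, had 30.9 and 34.8 RPKM at ZT0 against 46.98 and 49.5 RPKM at ZT12 in alpha cells, and 25.2 and 34.5 RPKM at ZT0 against 61.6 and 63.7 RPKM at ZT12 in beta cells (log2 difference -0.82, adjusted p = 0.04, with linked pairs 0.2). The first was thus higher and the second lower at ZT0 in each cell type, with no overlap of libraries, as in all 154 called genes. Ifit3 (log2 difference -1.78, adjusted p = 0.01, with linked pairs 0.061) and Oas1a (log2 difference -1.06, adjusted p = 0.04, with linked pairs 0.24), genes that interferon induces, fell too. All their libraries were under 2 RPKM, and both genes have close copies among which reads could be split.

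Most sterol synthesis and protein folding genes had a positive difference, with few calls. Of 20 cholesterol synthesis genes 1 rose and 0 fell, where 0.485% of all genes were called higher. The median was 0.35 and all 20 were above 0, while 7299 of 14027 genes were. An unadjusted p under 0.05 was found for 11 of them, where 15.2% of all genes had one, and 0 were called with linked pairs. Without ZT0 beta number 1, or without both ZT0 libraries of number 1, 17 of the 20 were above 0. Sqle, the squalene epoxidase, had a log2 difference of 0.50 (adjusted p = 0.14) and Insig1, which holds the pathway back, one of 0.11 (adjusted p = 0.8).

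Of 27 genes of the unfolded protein response 2 rose and 0 fell, where 0.485% of all genes were called higher. The median was 0.32, with 0.12 in alpha cells and 0.55 in beta cells. Of the 27 genes 23 were above 0, while 7299 of all 14027 genes were. An unadjusted p under 0.05 was found for 15 of the 27, against 15.2% of all genes, and 0 were called with linked pairs. Without both ZT0 libraries of number 1, 20 of the 27 were above 0. Hyou1, a chaperone of the endoplasmic reticulum, had 85.2 and 74.1 RPKM at ZT0 against 57.99 and 53.00 RPKM at ZT12 in alpha cells, and 329 and 320.1 RPKM at ZT0 against 163 and 162 RPKM at ZT12 in beta cells (log2 difference 0.76, adjusted p = 0.038, with linked pairs 0.2). Sdf2l1, a cofactor of the chaperone BiP, had 44.9 and 34.1 RPKM at ZT0 against 27.6 and 25.1 RPKM at ZT12 in alpha cells, and 329.7 and 249 RPKM at ZT0 against 121 and 109.6 RPKM at ZT12 in beta cells (log2 difference 0.94, adjusted p = 0.049, with linked pairs 0.23). Both were higher in beta cells at either time. Hspa5, which encodes BiP, had 418 and 325 RPKM at ZT0 against 333 and 306 RPKM at ZT12 in alpha cells, and 899.9 and 806 RPKM at ZT0 against 501 and 510.1 RPKM at ZT12 in beta cells, and did not pass (log2 difference 0.48, SE 0.162, adjusted p = 0.2). Neither did Herpud1, which had a negative difference (log2 difference -0.52, adjusted p = 0.15).

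Of 24 exocytosis genes 2 rose and 0 fell, with a median of 0.11, where 0.485% of all genes were called higher. Sytl5, a synaptotagmin-like effector of Rab27, had 58.4 and 57.6 RPKM at ZT0 against 35.4 and 41.1 RPKM at ZT12 in alpha cells, and 24.7 and 28.1 RPKM at ZT0 against 15.2 and 15.2 RPKM at ZT12 in beta cells (log2 difference 0.70, adjusted p = 0.016, with linked pairs 0.093). Syt5, a calcium sensor of the vesicle, was the other (log2 difference 0.54, adjusted p = 0.048, with linked pairs 0.24). Beside the same share of all genes, 2 of 19 receptors of secretion rose and 0 fell, with a median of 0.03. They were the fatty acid receptors Ffar1, for long chains, and Ffar3, for short chains. Ffar1 had 10.8 and 9.57 RPKM at ZT0 against 5.58 and 5.23 RPKM at ZT12 in alpha cells, and 53.6 and 58.4 RPKM at ZT0 against 44.01 and 39.4 RPKM at ZT12 in beta cells (log2 difference 0.66, adjusted p = 0.04, with linked pairs 0.23). Ffar3 had 1.71 and 2.04 RPKM at ZT0 against 0.813 and 0.698 RPKM at ZT12 in alpha cells, and 9.04 and 13.2 RPKM at ZT0 against 5.72 and 5.66 RPKM at ZT12 in beta cells (log2 difference 1.05, adjusted p = 0.017, with linked pairs 0.089). Both lie side by side on chromosome 7, Ffar3 from 30854330 to 30856178 and Ffar1 from 30857390 to 30861564 (GRCm38, counted from 1). Insm1, a transcription factor of endocrine cells (log2 difference 0.61, adjusted p = 0.023), Gpd2, the mitochondrial glycerol phosphate dehydrogenase (log2 difference 0.65, adjusted p = 0.042), the desaturase gene Fads2 (log2 difference 0.59, adjusted p = 0.032) and the vitamin D receptor gene Vdr (log2 difference 0.61, adjusted p = 0.043) rose as well. They were named after their values were seen, and none passed with linked pairs (adjusted p = 0.13, 0.23, 0.2 and 0.24).

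**Figure D4:**
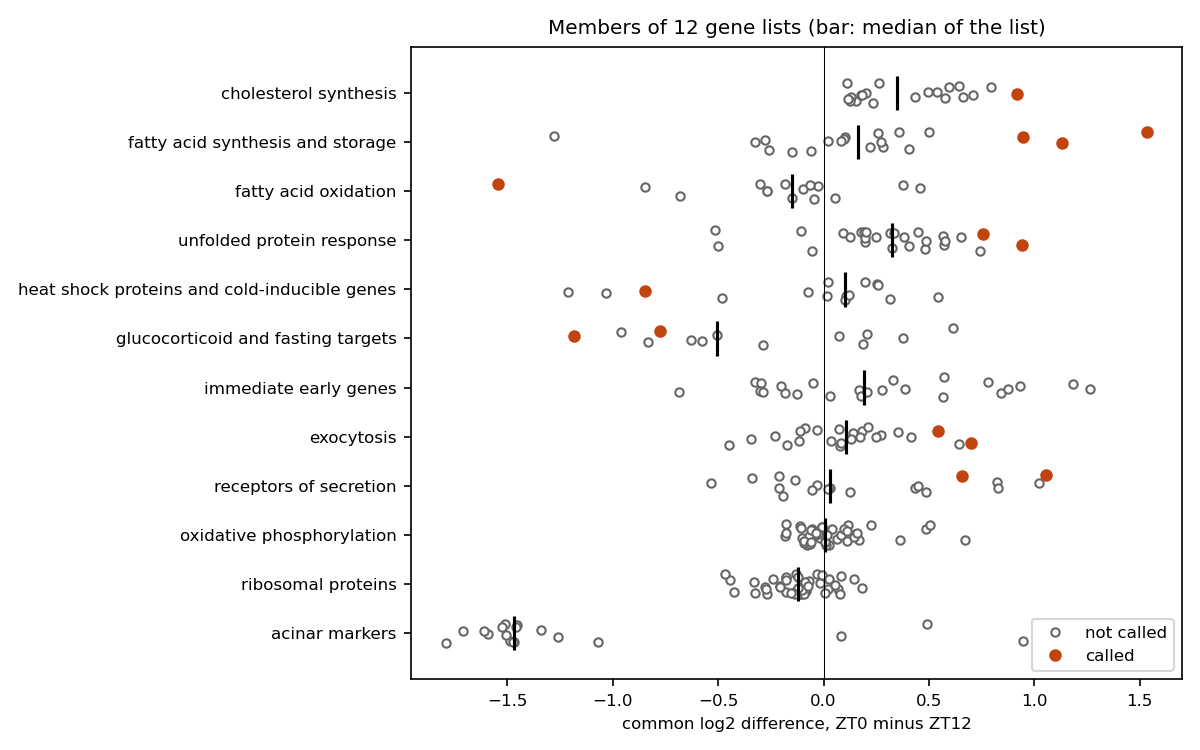
Common log2 difference, ZT0 minus ZT12 (x axis), of the members of 12 gene lists (y axis). Points are genes, filled where called, and vertical bars are list medians. All 20 cholesterol synthesis genes lie above 0, Cpt1a lies alone at -1.54 among fatty acid oxidation genes, and 15 of 18 acinar markers lie below 0 with none called in the fit shown and 9 called with the replicate number as a block.

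The hormones were not called. Iapp, the amylin gene, had a log2 difference of 0.07 (SE 0.208, adjusted p = 0.92), Ins2 at 0.36 (SE 0.356, adjusted p = 0.69), Ins1 at 0.30 (adjusted p = 0.77), Sst at 0.24 (adjusted p = 0.58), Ppy at 0.17 (adjusted p = 0.78) and Gcg at 0.89 (adjusted p = 0.43). Ins1 and Ins2 are near-identical, so their split of reads is uncertain. The difference of Gcg was larger in beta cells, where its trace was 141 and 372 RPKM at ZT0 against 93.1 and 40.5 RPKM at ZT12, while its log2 difference in alpha cells was -0.11 (SE 0.541). Clock kinases and ubiquitin ligases (11 genes), amino acid transporters (14), antioxidant genes (19), immediate early genes (24), proteasome subunits (31), lysosome and autophagy genes (26) and cell cycle genes (19) had 0 calls each, with 2, 4, 2, 6, 3, 4 and 4 members at an unadjusted p under 0.05 and medians between -0.07 and 0.23. Of 14 alpha cell identity genes, 19 beta cell identity genes, 15 genes of prohormone processing and granules, 22 of glucose sensing and excitability, 47 of oxidative phosphorylation and 46 ribosomal protein genes, limma called 0, with medians of 0.11, 0.36, 0.00, 0.13, 0.01 and -0.12. An unadjusted p under 0.05 was found for 3, 5, 1, 3, 4 and 3 of them. In the beta cell identity list the median was 0.71 in alpha cells and 0.10 in beta cells. With voom 1 gene was called in each of the lists of beta cell identity, glucose sensing, amino acid transporters and antioxidant genes. The other lists of this paragraph had 0 calls with voom. With quantile normalization 1 gene was called in each of the lists of oxidative phosphorylation, ribosomal proteins, immediate early genes and antioxidant genes. The ribosomal median was -0.38 without both ZT0 libraries of number 1 and 0.14 without both of number 2, so its sign followed the library pair.

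Among markers of other pancreatic cells, the acinar list stood out. Of 18 measured acinar markers, mostly digestive enzyme genes of the exocrine pancreas, 15 had a negative difference and the median was -1.47. Across both cell types limma called 0 (8 at an unadjusted p under 0.05). In beta cells alone it called 1, which was higher at ZT0. Across both cell types it called 9 with the replicate number as a block, 1 in the fit of all 24 libraries and 1 with voom. Their summed level was 82.8 and 321.3 RPKM in ZT0 alpha cells and 101 and 149 RPKM in ZT0 beta cells, against 186 and 601 RPKM in ZT12 alpha cells and 171 and 371 RPKM in ZT12 beta cells. The ZT0 and ZT12 libraries overlapped in alpha cells and not in beta cells, and number 2 was higher than number 1 in every group. No acinar marker was at 0 in any library. In bulk RNA fewer cells of a type and less RNA per cell cannot be told apart, and the part of acinar RNA in the other results was not tested. Duct, endothelial, immune, stromal and glial markers had 0 calls each (22 genes in all, 3 at an unadjusted p under 0.05), as did 6 delta cell markers (median 0.54, 3 at an unadjusted p under 0.05) and 3 PP cell markers.

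In alpha cells alone 13 genes (0.0927%) were called, 8 higher (0.0570%) and 5 lower (0.0356%) at ZT0, and 20 with linked pairs. They included Arntl, Cry1, Nfil3, Fam84a, Ypel2, Gucy2c and Rspo4, which rose, and Dbp, Nr1d1, Nr1d2, Tef and Cpt1a, which fell. All 13 had the same direction in beta cells. Nr1d2 (log2 difference -3.20, SE 0.142, adjusted p = 0.00029) and Arntl (log2 difference 3.04, SE 0.228, adjusted p = 0.0054) were among the strongest. On the log2(RPKM + 1) scale 5 were higher and 7 lower, on the log2(RPKM + 0.1) scale 9 and 5, with voom 6 and 8, and with no trend and no robust estimation 3 and 6. The count was 2 without either ZT0 alpha library, 4 and 2 without ZT12 alpha numbers 1 and 2, 26 and 25 without ZT0 beta numbers 1 and 2, and 7 without either ZT12 beta library.

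In beta cells alone 37 genes (0.264%) were called, 20 higher (0.143%) and 17 lower (0.121%) at ZT0, and 56 with linked pairs. Of the 37, 35 had the same direction in alpha cells. The 8 genes called in each cell type, Arntl, Nfil3, Fam84a, Ypel2, Dbp, Nr1d2, Tef and Cpt1a, were 61.5% of the alpha calls and 21.6% of the beta calls. Beyond the clock, the beta calls included A1cf, an RNA-binding cofactor of editing, with 2.51 and 2.37 RPKM at ZT0 against 0.703 and 0.726 RPKM at ZT12 (log2 difference 1.70, adjusted p = 0.02). Atp7a, a copper pump, had 16.8 and 15.9 RPKM at ZT0 against 6.99 and 6.83 RPKM at ZT12 (log2 difference 1.24, adjusted p = 0.025), Fam20a 17.4 and 19.9 RPKM at ZT0 against 6.46 and 7.12 RPKM at ZT12 (log2 difference 1.45, adjusted p = 0.026), and Creld2, an endoplasmic reticulum stress protein, 104 and 103 RPKM at ZT0 against 45.5 and 47.7 RPKM at ZT12 (log2 difference 1.15, adjusted p = 0.029). St3gal1, a sialyltransferase, rose too (log2 difference 1.52, adjusted p = 0.037). Those that fell included Rgs2, a brake on G protein signalling (log2 difference -2.87, SE 0.149, adjusted p = 0.00025), and the transcription factor genes Sox4 (log2 difference -1.44, adjusted p = 0.013) and Six4 (log2 difference -1.25, adjusted p = 0.037). Bambi, a decoy receptor of TGF-beta signalling (log2 difference -1.27, adjusted p = 0.023), Usp51 (log2 difference -1.65, adjusted p = 0.037) and Pik3ip1, an inhibitor of PI3 kinase (log2 difference -1.33, adjusted p = 0.038), fell as well. The count was 13 without either ZT0 alpha library, 7 without either ZT12 alpha library, 132 and 48 without ZT0 beta numbers 1 and 2, and 6 and 5 without ZT12 beta numbers 1 and 2.

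**Figure D5:**
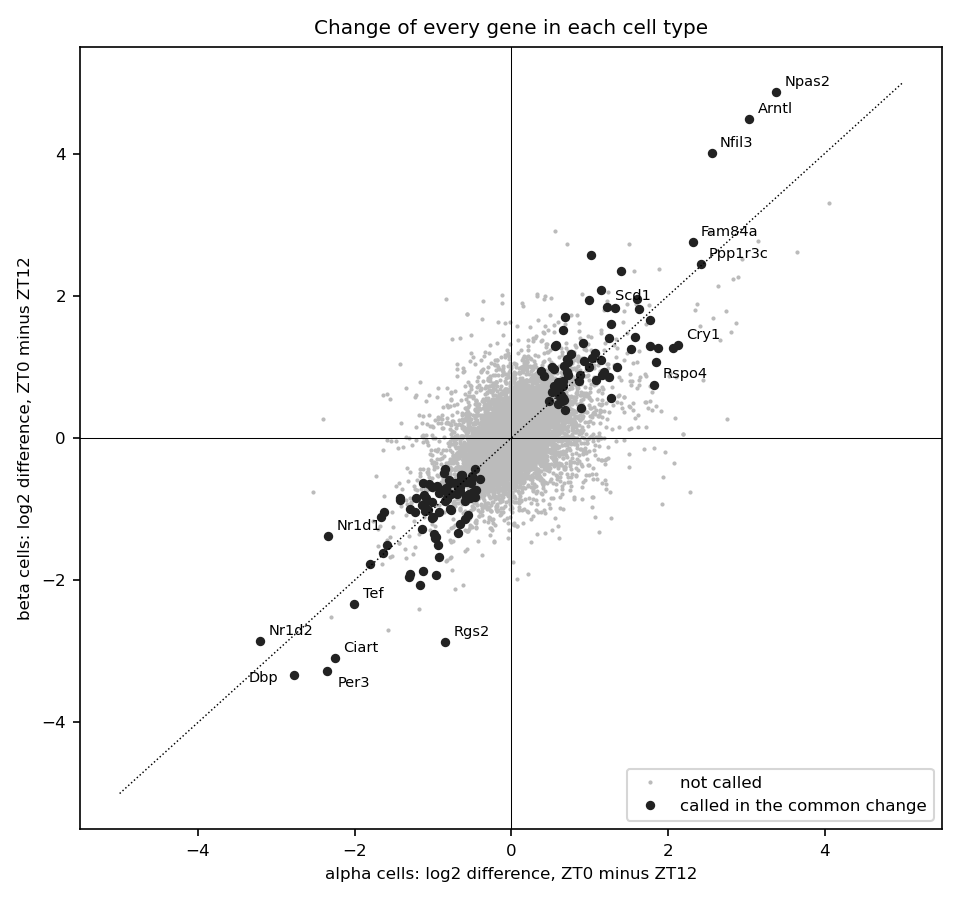
Log2 difference ZT0 minus ZT12 of every gene in alpha cells (x axis) and beta cells (y axis), with the 154 genes of the common change in black and the others in grey. The dotted line marks equal change. All black points lie in the lower left or upper right quadrant, and Rgs2 lies at -0.84 in alpha and -2.87 in beta cells.

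The change did not differ between alpha and beta cells for any gene at an adjusted p under 0.05 (limma, 0 of 14027 called, 0%, and 476 at an unadjusted p under 0.05). With voom on recovered reads the count was also 0, with linked pairs it was 2, Fam20a and Rgs2, and with all 24 libraries in 1 fit it was 2, Atp7a and Rhou. In simulated data without linked pairs, the limma test of the difference recovered 7 of 67 genes changed 2-fold in alpha cells only. Of 66 genes changed 4-fold it recovered 43. The 0 calls thus do not show an equal change in both cell types. The lowest adjusted p in the 8 libraries was that of Rgs2. It had 19.1 and 16.7 RPKM at ZT0 against 32.6 and 31.6 RPKM at ZT12 in alpha cells, and 10.01 and 9.18 RPKM at ZT0 against 64.5 and 77.2 RPKM at ZT12 in beta cells, a difference of the log2 changes, alpha minus beta, of 2.03 (SE 0.211, adjusted p = 0.18). The libraries of Rgs2 separated ZT0 from ZT12 in each cell type, and the common change was -1.86 (adjusted p = 0.043), which passed in 0 of 8 fits without 1 library. Atp7a, next in order, had 4.96 and 4.55 RPKM at ZT0 against 4.59 and 5.32 RPKM at ZT12 in alpha cells, where its log2 difference was -0.06 (difference of changes -1.30, adjusted p = 1.0). Fam20a had 13.5 and 18.2 RPKM at ZT0 against 16.4 and 17.4 RPKM at ZT12 in alpha cells, where its log2 difference was -0.11 (difference of changes -1.56, adjusted p = 1.0). Bambi (difference of changes 1.02) and Rhou (difference of changes -1.10) were among the 10 lowest p, as were Derl3 (difference of changes -2.11), Slc9a3r1 (difference of changes 1.11), Tmod1 (difference of changes 1.22), Cabp7 (difference of changes 0.86) and Pdk4 (difference of changes -2.05), all at an adjusted p of 1.0. Pdk4, which inhibits pyruvate dehydrogenase, had 8 reads at ZT0 against 1 read at ZT12 in beta cells, a ratio of 8.23 (95% interval 1.10 to 365, counting error only). Derl3 had 0.732 and 0.363 RPKM at ZT0 against 1.79 and 1.84 RPKM at ZT12 in alpha cells, and 18.1 and 17.97 RPKM at ZT0 against 13.8 and 10.8 RPKM at ZT12 in beta cells.

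Among the 15 called clock genes the size was larger in beta cells for 11 and in alpha cells for 4, Nr1d1, Nr1d2, Cry1 and Bhlhe41. The difference was past an unadjusted p of 0.05 for 5 of them, and its adjusted p was 1.0 for all 15. Of all 154 called genes, 91 had the larger size in beta cells and 63 in alpha cells, and 22 had such an unadjusted p. Arntl had a log2 difference of 3.04 in alpha and 4.49 in beta cells, a difference of -1.45 (SE 0.322), and Nfil3 2.56 and 4.01, a difference of -1.45 (SE 0.304). At ZT12 both genes were lower in beta cells. At ZT0 the beta libraries lay just above the alpha libraries for Arntl and overlapped them for Nfil3. Nr1d1 went the other way, with -2.33 in alpha and -1.38 in beta cells (difference -0.96, SE 0.299), and there the ZT12 libraries overlapped and the ZT0 level in alpha cells was lower.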

How the data were processed

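The table covered 14027 genes in 24 libraries of mouse islet alpha and beta cells, 2 per cell type and time. Per the submitters' processing notes, STAR, edgeR and mm10 were used. For versions, annotation, strand setting and gene filter, the sources used here give nothing. The values the authors deposited are log2 RPKM with a small prior count (mean 2.0 reads over the libraries), found from the values. Whole reads were recovered from them for all 14027 genes (tolerance 0.01, largest deviation 1.4e-07), and printed RPKM were computed from these reads with no prior. Library totals in the 8 libraries were 4944982 to 12219276 reads. The library size behind the RPKM was not proportional to these totals. ZT0 alpha number 2 had 10775718 reads and a prior of 2.41, and number 1 had 12219276 reads and a prior of 2.39. Replicates differed beyond sampling noise (chi-square per gene 2.57 to 48.6). Whether replicates are separate animals is not in the labels. The p-values therefore speak only of the spread among these libraries, which may be technical.

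The log2 values as deposited were tested with limma 3.58.1 (R 4.3.3, trend and robust estimation, Benjamini-Hochberg over 14027 genes, called at adjusted p under 0.05, no filter). The common change used 8 libraries with cell type as a factor. Changes in each cell type and their difference used 4 group means, and neighbouring times the 16 other libraries. Differences are ZT0 minus ZT12 on the log2 scale. Linked pairs were fitted as a random block of time and number. The fitted correlation was 0.437 for the common change and 0.253 for the neighbouring times. It was 0.552 for the changes in each cell type and their difference. Each fit took 1 correlation for all its times, though deviations correlated at 0.73 at ZT0 and 0.17 at ZT12. Alternatives changed the pseudocount, filter, scaling, variance model, libraries and block, and voom was run on recovered reads. The fit was also tested on simulated data. Named genes were the 12 largest calls in each direction (mean log2 RPKM above 0, same direction in both cell types), all core clock genes, up to 3 calls of each other list, 6 calls per direction in each cell type, the 10 lowest p of the difference, and 6 hormones. Predicted genes, 13 of the 154, were counted and not named. Genes outside this rule were named after their values were seen: those so marked in the text, the uncalled members given as examples of a list, and the remaining genes called with linked pairs. The 30 gene lists, their members and the comparison were chosen with earlier results of these data known. Gene coordinates are from GENCODE M21 (GRCm38), which matched 13802 of 14027 identifiers, 12399 under the same symbol. 144 entries share a symbol. Some genes are not reported here.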

Additional observations from a re-analysis of the deposited data

Results flagged for a closer look

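A library was singled out where, among the 4 libraries of a time after each cell type's mean was taken off, the gap of the highest or lowest to its nearest neighbour exceeded Dixon's critical share of the range. Chance gives this for about 1 in 20 groups. Of 202 groups tested (101 genes at 2 times), 9 were singled out. ZT12 beta number 2 stood apart for 4 genes, low for Fam84a (0.831 of the range, 0.227 RPKM), Scd1 (0.891, 0.813 RPKM) and Acaa2 (0.882, 23.8 RPKM) and high for Wfdc16 (0.908, 4.04 RPKM). ZT12 alpha number 2, the shallowest library, was high for Sytl5 (0.932, 41.1 RPKM) and Klhl24 (0.853, 19.8 RPKM). At ZT0, beta number 1 was high for Rora (0.906, 8.68 RPKM), beta number 2 was high for Sytl5 (0.901, 28.1 RPKM), and alpha number 2 was low for Ppy (0.893, 19820 RPKM).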

How the results depend on the processing

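The number of genes called depended on how the spread was estimated, and no named gene called in the 8 libraries changed sign under an alternative. The uncalled Per1, Per2, Ins1, Ins2, Iapp and Insig1 did so without 1 or both libraries of a time and number, as did 14 of the list medians under 1 alternative or more. For the common change, with 154 calls, the count was 97 with no trend and no robust estimation, 802 with all 24 libraries in 1 fit, 264 with the replicate number as a block, and 23 with time and number as a random block, which gave 19 at the neighbouring times (34 calls). In alpha cells (13 calls) it was 113 in the fit of all 24 libraries and 20 with the random block. In beta cells (37 calls) it was 19 with no trend, 395 with all 24 libraries, 65 with the replicate block and 56 with the random block. The difference of change had 2 calls with all 24 libraries and 2 with the random block. Without 1 library the counts ranged from 25 to 215 (common), 2 to 26 (alpha), 5 to 132 (beta), 0 to 0 (difference) and 15 to 57 (neighbouring times). Leaving out both libraries of 1 time and number, chosen after seeing the data, gave 3047 and 2013 (ZT0 numbers 1 and 2) or 7 and 7 (ZT12) for the common change, 862, 601, 5 and 0 in alpha cells. In beta cells the same 4 fits gave 2750, 1526, 4 and 3. The cause was not tested. ZT0 and ZT12 libraries of the same number did not pair, since their deviations correlated at 0.066 in alpha and -0.018 in beta cells. The replicate block gave 14 calls in alpha cells, 0 for the difference and 29 at the neighbouring times. Of the higher and lower calls of the common change, 44.2% were higher in the 8 libraries and 54.6% in the fit of all 24. The other scalings, pseudocounts, the filter and voom kept the counts within 1.5 times. With 2 libraries a group, a small change in 1 cell type was not detectable. A 2-fold or 4-fold change in 1 cell type only could be missed by the test of the difference. Genes of few reads depend on the prior count.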
